A study of Mus musculus with 8 samples.

Results

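The corticosteroid receptor genes, the enzymes that set the amount of active hormone inside the cell, and the chaperones and a coactivator of the receptors were examined in mouse macrophages. The 10 genes were chosen by name, and every array probe set annotated to them was taken. This gave 23 of the 45037 probe sets tested, for 9 of the 10 genes. Nr3c1 had 6 probe sets, Hsp90aa1 5, Fkbp4 and Ncoa1 3 each, Ptges3 2, and Nr3c2, Hsd11b1, Hsd11b2 and H6pd 1 each. The platform annotation used here lists none under Hsp90ab1, the constitutive form of the chaperone Hsp90. Both Ptges3 probe sets are annotated to the pseudogene Ptges3-ps as well, so their signal cannot be assigned to either gene alone.

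RNA was hybridised to Affymetrix arrays from peritoneal macrophages of male C57BL6/J mice, drawn out with 3% aged Brewer's thioglycolate, collected at day 4 and kept by adherence. All mice carried the floxed mineralocorticoid receptor alleles (MR fl / fl). The 4 groups of 2 arrays were knockout cells (MR fl / fl, LysM cre) with 1 µM corticosterone for 24 h, knockout cells untreated, control cells (MR fl / fl, no Cre named) with 1 µM corticosterone for 24 h, and control cells untreated. The LysM Cre is driven from the locus of Lyz2, a lysozyme gene of myeloid cells, so other cells in a culture keep the receptor gene. Each sample pooled experiments made in triplicate. The labels call the 2 samples of a group biological replicates but do not say that they came from separate mice, and the p-values reflect only how far such pooled samples differ, which may be technical.

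Corticosterone is the main glucocorticoid of mice. It binds the glucocorticoid receptor, encoded by Nr3c1, and the mineralocorticoid receptor, encoded by Nr3c2, which also binds aldosterone. Before the hormone arrives both receptors are held ready for it by Hsp90, its partner p23 (encoded by Ptges3) and immunophilins such as Fkbp4, and once bound they recruit coactivators such as Ncoa1 at their target genes. Hsd11b1 regenerates active glucocorticoid from its inert keto form with NADPH that H6pd supplies in the endoplasmic reticulum, and Hsd11b2 runs the opposite reaction and shields the mineralocorticoid receptor in epithelia.

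RefSeq promoters, from 250 bases before to 50 bases after the annotated start, were at hand for 6 of the 10 genes (GRCm38.p6). They are shown for Ncoa1, which rose with the hormone, Nr3c2, which is the deleted gene, and Fkbp4, a chaperone gene with no call. Capitals mark matches, on either strand, to AGAACA (an arm of the glucocorticoid response element), ACANNNTGT (the core of that element) or GAANNTTC (the core of the heat shock element); no match overlapped another.
Ncoa1, chr12:4477133-4477432, minus strand: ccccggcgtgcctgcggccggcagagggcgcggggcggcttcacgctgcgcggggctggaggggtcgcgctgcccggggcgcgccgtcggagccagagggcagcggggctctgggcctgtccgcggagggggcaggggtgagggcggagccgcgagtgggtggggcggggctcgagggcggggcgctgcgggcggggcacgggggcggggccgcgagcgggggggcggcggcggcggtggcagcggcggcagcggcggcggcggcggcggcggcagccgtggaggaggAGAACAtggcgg
Nr3c2, chr8:76902080-76902379, plus strand: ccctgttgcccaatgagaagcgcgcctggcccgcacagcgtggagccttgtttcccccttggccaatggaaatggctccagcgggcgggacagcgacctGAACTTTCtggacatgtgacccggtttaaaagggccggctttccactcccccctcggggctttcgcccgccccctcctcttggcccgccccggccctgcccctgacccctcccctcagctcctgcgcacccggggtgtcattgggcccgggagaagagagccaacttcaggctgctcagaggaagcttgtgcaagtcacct
Fkbp4, chr6:128438607-128438906, minus strand: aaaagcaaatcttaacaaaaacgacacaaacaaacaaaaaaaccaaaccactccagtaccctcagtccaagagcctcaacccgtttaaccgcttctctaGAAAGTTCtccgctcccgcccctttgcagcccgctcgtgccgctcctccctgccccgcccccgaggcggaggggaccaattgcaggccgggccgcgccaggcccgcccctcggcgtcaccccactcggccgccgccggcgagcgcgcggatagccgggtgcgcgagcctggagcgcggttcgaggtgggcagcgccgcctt
Ncoa1 held AGAACA once, starting at base 289 of its window, and H6pd held it once on the opposite strand, starting at base 157, near the middle; 19.0% of the 32851 promoters in the table hold it. Nr3c2 and Fkbp4 each held GAANNTTC once, which 7.86% of promoters hold. None of the 6 promoters held ACANNNTGT, which 6.85% hold. GC content was 84.7% for Ncoa1, 65.7% for Nr3c2 and 65.3% for Fkbp4.

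Control untreated replicate 2 stood apart from the other arrays. Its median correlation with them over all probe sets was 0.919, against 0.994 to 0.995 for each of the other 7, and Actb, an array control measured at both ends of its transcript, read 2.18 log2 units higher at the 3′ end than at the 5′ end, against 0.41 to 0.62 elsewhere. That gap grows when RNA is degraded. The mean of 10 macrophage markers was 11.31 log2 units there and 11.93 to 12.14 elsewhere, and that of 10 mesothelial and fibroblast markers was 8.93 there and 6.93 to 7.37 elsewhere. Results are therefore given first from the 7 other arrays, where untreated control cells have 1 array, taken to vary as much as arrays of the other groups do, and then from all 8. Values are log2 levels from RMA; the lower quartile of all probe sets was 3.49 to 3.62 and the median 5.55 to 5.58 on the 8 arrays, and no detection call was available. The level of one probe set is not comparable with that of another. The hormone acted in both genotypes: Fkbp5, an immunophilin that glucocorticoids induce, read 12.07 and 12.07 in knockout cells with corticosterone against 8.45 and 8.45 untreated, and 11.93 and 11.97 in control cells with corticosterone against 8.08 and 8.72 untreated (probe set 1416125_at). Lyz2 lay between 13.58 and 13.78 on all 8 arrays and was not called in any comparison.

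The deleted gene was lower in knockout cells. Nr3c2 (1435991_at) read 5.11 and 5.47 in knockout cells with corticosterone, 5.54 and 5.82 in untreated knockout cells, 6.39 and 6.13 in control cells with corticosterone, and 6.39 and 8.46 in untreated control cells. Each of the 4 knockout arrays lay below each of the 4 control arrays, an arrangement that 1.79% of all probe sets showed. The value of 8.46 belongs to the array that stood apart. The mean was 5.49 ± 0.29 in knockout arrays and 6.84 ± 1.09 in control arrays (SD, n = 4 each; two-sided exact permutation test, p = 0.0286, the smallest that 70 arrangements allow). Over the 7 arrays the control mean was 6.30 ± 0.15 (SD, n = 3; exact p = 0.0286, the smallest that 35 arrangements allow).

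In the fit of 7 arrays Nr3c2 fell by 0.84 log2 units as a mean over both treatments (SE 0.14, limma adjusted p = 0.0116, ratio 0.559). It was the 1 member probe set of 23 called in that comparison, where 2.36% of all probe sets were called and 0.826% called lower. With corticosterone the fall was 0.97 (SE 0.17, limma adjusted p = 0.0369, ratio 0.511), again the only member called, against 0.795% of all probe sets and 0.175% lower. In untreated cells Nr3c2 differed by -0.71 (SE 0.21), and no member was called, against 0.977% of all probe sets. That comparison rested on a single array of untreated control cells. Leaving out control corticosterone replicate 1 ended the mean call (adjusted p = 0.0855). The call with hormone did not survive leaving out control corticosterone replicate 1 (adjusted p = 0.433) or 2 (0.187), or knockout corticosterone replicate 1 (0.313) or 2 (0.0524), nor fitting the replicate number as a block (0.0689).

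With all 8 arrays Nr3c2 differed by -1.36 as a mean over both treatments (adjusted p = 0.78), by -0.97 with corticosterone (adjusted p = 1) and by -1.75 untreated (adjusted p = 0.516). None passed, and limma called 0.0133%, 0% and 0% of all probe sets in these 3 comparisons; unadjusted p was under 0.05 for 1434, 532 and 2110 probe sets, and for 2, 0 and 2 of the 23 members. Where 1435991_at lies relative to the floxed part of the gene was not known here, so how far its level checks the labels was not settled. The residual signal in knockout cells cannot be divided between background of the array, other cells and cells that kept the gene. Means of 9 cell cycle markers also differed between genotypes: 7.92 and 7.67 in knockout against 7.05 and 7.05 in control cells with corticosterone, and 8.47 and 8.61 in knockout against 7.90 and 9.75 in control cells untreated. As a mean over both treatments, the median knockout minus control difference of the 9 was 0.69 with 7 arrays and 0.21 with 8. Between untreated cells it was 0.69 with 7 arrays, with a single control array, and -0.29 with 8. None of the 9 was called with 8 arrays. Their part in the genotype differences given here was not tested.

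The hormone difference of Nr3c2 did not pass in either genotype with 7 or with 8 arrays. The change was -0.39 in knockout cells (SE 0.17, adjusted p = 0.245) and -0.13 in control cells (SE 0.21, adjusted p = 0.842) with 7 arrays, and with 8 it was -1.17 in control cells (adjusted p = 0.447). With control untreated replicate 2, the array that stood apart, in place of replicate 1, the control difference was -2.20. Over the groups the order was untreated control (replicate 1) and corticosterone-treated control, which met at 6.39, then untreated knockout and, lowest, corticosterone-treated knockout. With 7 arrays neither neighbouring pair within a genotype passed the test. The named probe sets whose centred values over the 7 arrays lay closest to those of Nr3c2 were those of Pgpep1 (root mean square difference 0.113 log2 units), Cyp4f18 (0.134), Npas2 (0.168), Ccl8 (0.176) and Zfp882 (0.183), beside an SD of Nr3c2 itself of 0.491. With the eighth array these differences were 0.541 to 1.27. Pgpep1, for example, read at most 9.39 on the 4 knockout arrays, 9.99 and 9.94 in control cells with corticosterone, and 10.06 and 8.36 in untreated control cells.

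**Figure D1:**
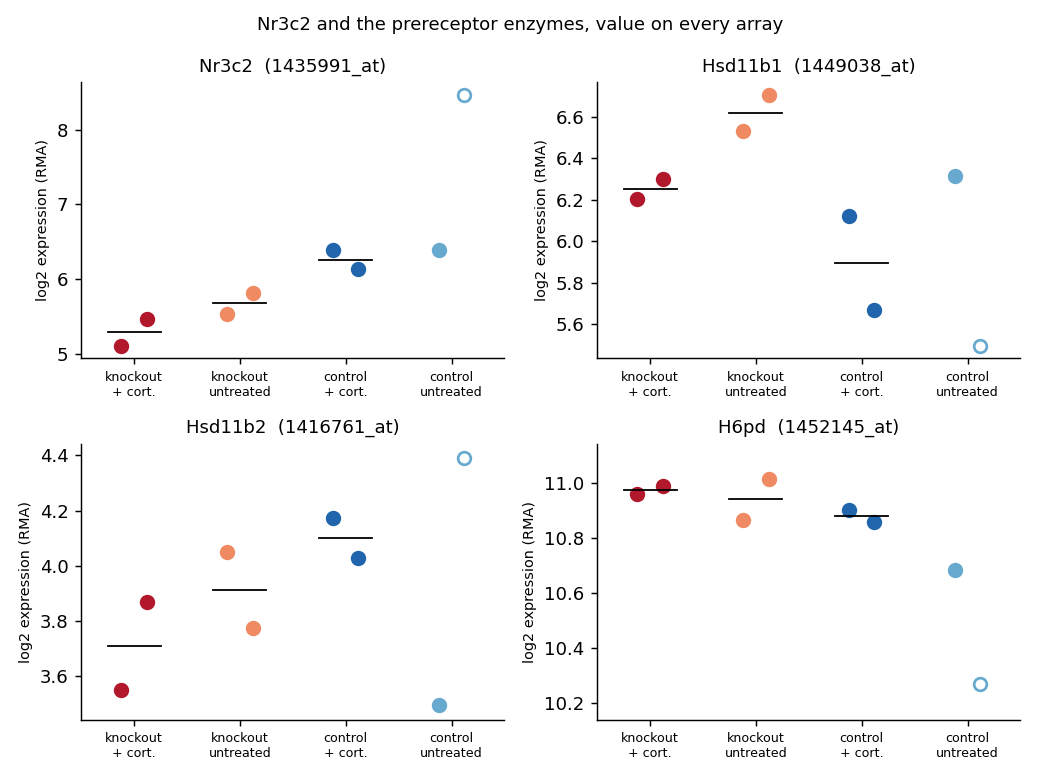
Log2 expression of Nr3c2, Hsd11b1, Hsd11b2 and H6pd on each array, with knockout groups left of control groups and corticosterone left of untreated. Each point is 1 array, lines are means of 2 arrays, and the open point is control untreated replicate 2; all 4 knockout arrays of Nr3c2 lie at or below 5.82, under every control array.

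With 7 arrays the glucocorticoid receptor gene was called lower with corticosterone on 3 of its 6 probe sets in knockout cells and on 2 of 6 in control cells. Probe set 1460303_at of Nr3c1 read 10.50 and 10.37 in knockout cells with corticosterone against 10.75 and 10.71 untreated, and 10.46 and 10.51 in control cells with corticosterone against 10.80 and 10.46 untreated. Probe set 1457635_s_at read 10.46 and 10.30 in knockout cells with corticosterone against 10.59 and 10.77 untreated, and 10.33 and 10.39 in control cells with corticosterone against 10.79 and 11.02 untreated. Probe set 1421867_at read 11.05 and 11.09 in knockout cells with corticosterone against 11.32 and 11.21 untreated, and 11.11 and 11.07 in control cells with corticosterone against 11.23 and 10.54 untreated. In control cells the array that stood apart was lowest on 1421867_at, level with the treated arrays on 1460303_at and highest on 1457635_s_at.

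With 7 arrays Nr3c1 fell in knockout cells by 0.30 on 1460303_at (SE 0.05, limma adjusted p = 0.00532, ratio 0.815), by 0.30 on 1457635_s_at (SE 0.07, adjusted p = 0.0235) and by 0.19 on 1421867_at (SE 0.04, adjusted p = 0.0211, ratio 0.875). These 3 were the members called lower of 23, against 4.82% of all probe sets, while 4.33% were called higher and 9.14% either way. In control cells Nr3c1 fell by 0.32 on 1460303_at (SE 0.06, adjusted p = 0.0149) and by 0.43 on 1457635_s_at (SE 0.09, adjusted p = 0.0143), and the difference on 1421867_at was -0.14 (adjusted p = 0.197). These were 2 of 23 members called lower, against 3.6% of all probe sets, with 3.19% higher and 6.79% either way. The interaction, which asks whether the response differed between genotypes, was 0.020, 0.13 and -0.055 on 1460303_at, 1457635_s_at and 1421867_at (adjusted p = 0.993, 0.946 and 0.962). No member was called for the interaction, against 0.00888% of all probe sets.

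The calls on Nr3c1 rested on few arrays. In knockout cells that of 1460303_at was lost without knockout corticosterone replicate 2 (adjusted p = 0.0616). That of 1421867_at was lost without knockout corticosterone replicate 1 (0.153) or 2 (0.0868) or knockout untreated replicate 1 (0.0718), and that of 1457635_s_at without knockout corticosterone replicate 2 (0.197), knockout untreated replicate 2 (0.102) or control corticosterone replicate 1 (0.0569) or 2 (0.0572). In control cells both were lost without control corticosterone replicate 1 (0.11 and 0.109) or 2 (0.0644 and 0.0698). With control untreated replicate 2 in place of replicate 1, the difference of 1460303_at was 0.03 instead of -0.32 and that of 1457635_s_at -0.65 instead of -0.43. With all 8 arrays the control differences were -0.14 on 1460303_at (adjusted p = 0.556), -0.54 on 1457635_s_at (adjusted p = 0.447) and 0.21 on 1421867_at (adjusted p = 0.587), and no member was called in either genotype, where limma called 0.0577% of probe sets in knockout and 0.0622% in control cells. Unadjusted limma p was under 0.05 for 1 of the 23 members in knockout and 3 in control cells, against 1645 and 3686 of the 45037 probe sets.

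The 3 dimmer probe sets of Nr3c1 were not called in any comparison. Probe set 1453860_s_at lay between 6.43 and 6.94 on the 7 arrays and at 4.84 on control untreated replicate 2. Probe set 1431378_at lay between 4.28 and 4.63 on all 8. Probe set 1421866_at read 5.35 and 5.58 in knockout cells with corticosterone against 5.29 and 5.28 untreated, and 5.46 and 5.38 in control cells with corticosterone against 5.99 and 4.76 untreated. Its hormone difference was 0.18 in knockout and -0.57 in control cells with 7 arrays (adjusted p = 0.552 and 0.0909), opposite in sign to the brighter sets in knockout cells. Affymetrix marks with _s_at those probe sets that can match transcripts of more than a single gene. Genotype made no call on any of the 6 probe sets; as a mean over both treatments the knockout minus control difference lay between -0.33 (1421866_at, adjusted p = 0.199) and 0.013 (1421867_at, adjusted p = 0.911).

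Means of lymphocyte and cell cycle markers were lower with the hormone as well. The mean of 7 B cell markers was 6.21 and 6.30 in knockout cells with corticosterone against 7.52 and 7.32 untreated, and 6.17 and 6.25 in control cells with corticosterone against 7.17 and 6.31 untreated; 5 of 7 were called lower in each genotype with 7 arrays. The mean of 7 T and NK cell markers was 4.61 and 4.71 in knockout cells with corticosterone against 6.07 and 6.03 untreated, and 4.64 and 4.69 in control cells with corticosterone against 5.85 and 5.41 untreated; 5 of 7 were called lower in each genotype. Of 9 cell cycle markers 8 were called lower in each, and of 6 mast cell and basophil markers 3 were called higher in each. Over all genes 14.4% were called either way in knockout cells with 7 arrays and 11% in control cells, where a single untreated array was used. With all 8 arrays 1 T and NK cell marker was called lower in each genotype. No B cell, cell cycle, or mast cell and basophil marker was called with 8. In such bulk samples fewer cells of a type and less RNA per cell cannot be told apart. The part of these cells in the hormone differences of the receptor and coactivator genes was not tested.

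The probe set of Nr3c1 with the highest mean, 1421867_at, had its closest neighbours over the 7 arrays in Snapc2 (root mean square difference of centred values 0.0163), Dgat1 (0.017), Hat1 (0.0215), Hhex (0.022) and Ppip5k1 (0.0226), beside its own SD of 0.0993. With the eighth array only Snapc2 stayed close, at 0.0504, against 0.139 to 0.476 for the other 4.

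**Figure D2:**
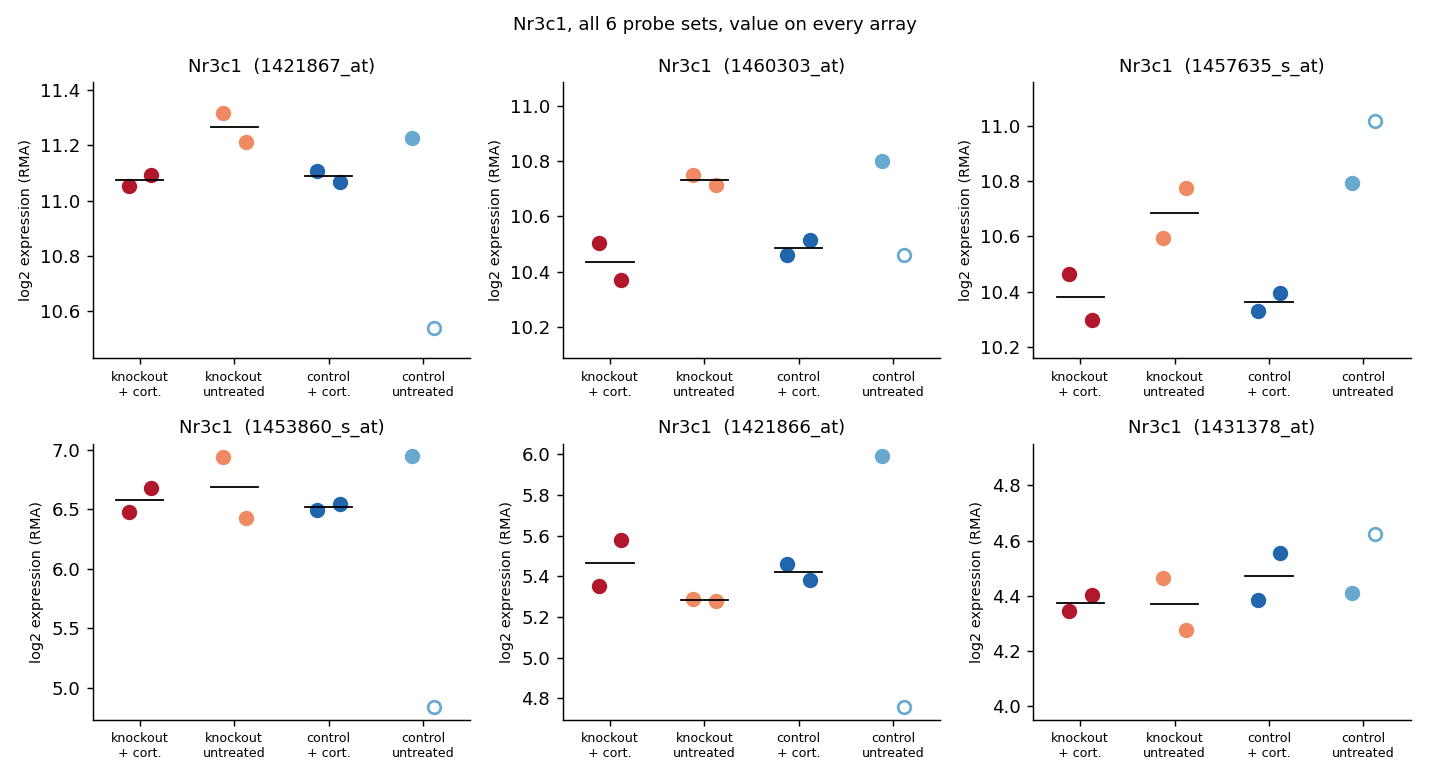
Log2 expression of Nr3c1 on each array for its 6 probe sets, with knockout left of control and corticosterone left of untreated. Points are arrays, lines are means of 2, and the open point is control untreated replicate 2. The upper row holds the 3 brighter probe sets, and the lower row, of the 3 dimmer ones, shows no common direction.

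Ncoa1, a coactivator of the p160 family that nuclear receptors recruit, was higher with corticosterone on 2 of its 3 probe sets. Probe set 1434515_at read 11.59 and 11.57 in knockout cells with corticosterone against 11.32 and 11.41 untreated, and 11.56 and 11.56 in control cells with corticosterone against 11.40 and 11.51 untreated. Probe set 1418594_a_at read 9.50 and 9.62 in knockout cells with corticosterone against 9.26 and 9.11 untreated, and 9.60 and 9.47 in control cells with corticosterone against 9.13 and 8.26 untreated. On both probe sets the array that stood apart also read below the treated control arrays, on 1434515_at at 11.51 against 11.56 and 11.56. How many of all probe sets separate treated from untreated arrays in this way was not counted. The third, 1443397_at, lay between 2.80 and 3.26 on all 8 arrays, near the bottom of the scale, with no call.

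With 7 arrays Ncoa1 rose in knockout cells by 0.21 on 1434515_at (SE 0.04, limma adjusted p = 0.00541, ratio 1.16) and by 0.38 on 1418594_a_at (SE 0.07, adjusted p = 0.0107, ratio 1.3), the 2 members called higher of 23, against 4.33% of all probe sets. In control cells it rose by 0.41 on 1418594_a_at (SE 0.09, adjusted p = 0.0269, ratio 1.33), the 1 member of 23 called higher, against 3.19% of all probe sets, a share near that background, and the difference on 1434515_at was 0.16 (SE 0.05, adjusted p = 0.0766). The interaction was 0.054 and -0.028 on 1434515_at and 1418594_a_at (adjusted p = 0.959 and 0.993). The knockout call was lost without knockout corticosterone replicate 1 on 1434515_at (adjusted p = 0.0633) and without its replicate 2 on 1418594_a_at (0.111), and the control call without control corticosterone replicate 1 (0.178) or 2 (0.0662). The control difference on 1418594_a_at was 1.27 with control untreated replicate 2 in place of replicate 1. With all 8 arrays the control differences were 0.84 on 1418594_a_at and 0.10 on 1434515_at (adjusted p = 0.447 and 0.489). The genotypes were close: knockout minus control, as a mean over both treatments, was -0.0033 on 1434515_at and 0.04 on 1418594_a_at (adjusted p = 0.978 and 0.825).

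**Figure D3:**
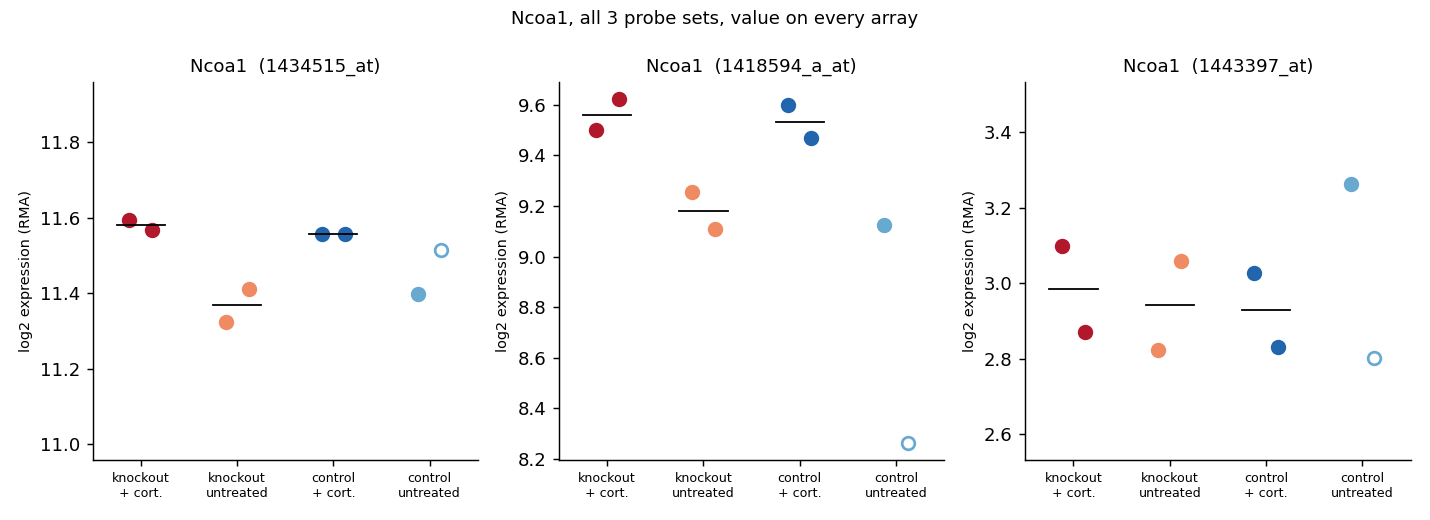
Log2 expression of Ncoa1 on each array for its 3 probe sets, knockout left of control and corticosterone left of untreated. Points are arrays, lines are means of 2, and the open point is control untreated replicate 2. In the left and middle panels treated arrays lie above untreated ones, which in the right panel, between 2.80 and 3.26, they do not. The share of all probe sets with such a gap was not counted.

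The prereceptor enzymes were not called in any comparison with 7 or 8 arrays. H6pd (1452145_at) read 10.96 and 10.99 in knockout cells with corticosterone, 10.86 and 11.01 in untreated knockout cells, 10.90 and 10.86 in control cells with corticosterone, and 10.68 and 10.27 in untreated control cells. Its knockout minus control difference was 0.17 as a mean over both treatments (SE 0.04, limma adjusted p = 0.061, 95% interval 0.08 to 0.26) and 0.25 untreated (SE 0.06, adjusted p = 0.113). It passed as a mean when dim probe sets were left out (adjusted p = 0.0381), with 1 probe set per gene (0.0416) and without knockout untreated replicate 1 (0.00555), and untreated without that array (0.013). With control untreated replicate 2, the array that stood apart, in place of replicate 1, the difference was 0.38 as a mean and 0.67 untreated. With 8 arrays the mean difference was 0.28 (adjusted p = 0.78).

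Hsd11b1 (1449038_at) read 6.20 and 6.30 in knockout cells with corticosterone, 6.53 and 6.71 in untreated knockout cells, 6.12 and 5.67 in control cells with corticosterone, and 6.32 and 5.50 in untreated control cells. Its lower reading with hormone, by a log2 difference of -0.37 in knockout (SE 0.16, adjusted p = 0.232) and -0.42 in control cells (SE 0.20, adjusted p = 0.305), did not pass with 7 arrays, and was -0.0092 in control cells with 8. Knockout minus control was 0.33 as a mean over both treatments (SE 0.13, adjusted p = 0.277). Hsd11b2 (1416761_at) read 3.55 and 3.87 in knockout cells with corticosterone, 4.05 and 3.77 in untreated knockout cells, 4.17 and 4.03 in control cells with corticosterone, and 3.49 and 4.39 in untreated control cells. The untreated control replicates of Hsd11b2 held both its lowest and its highest value, so its largest 7-array difference, 0.61 with hormone in control cells (SE 0.20, adjusted p = 0.129), was 0.16 with 8 arrays.

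The chaperone probe sets were not called in any comparison either. The brightest of Hsp90aa1, the inducible form of Hsp90, was 1438902_a_at at 12.04 and 11.98 in knockout cells with corticosterone, 12.01 and 12.11 in untreated knockout cells, 11.98 and 11.99 in control cells with corticosterone, and 12.09 and 12.52 in untreated control cells. Its hormone difference was -0.05 in knockout (95% interval -0.13 to 0.03) and -0.11 in control cells (-0.21 to -0.0067; adjusted p = 0.239). Probe sets 1437497_a_at and 1426645_at of Hsp90aa1 gave -0.11 and -0.06 in knockout and -0.17 and -0.17 in control cells (adjusted p = 0.337, 0.575, 0.253 and 0.137). Its dim probe sets, 1441827_x_at and 1433251_at, lay between 4.51 and 4.93 on the 7 arrays.

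Fkbp4, an immunophilin that links steroid receptors to the dynein motor, read on its brightest probe set, 1416362_a_at, 9.62 and 9.74 in knockout cells with corticosterone, 9.76 and 9.74 in untreated knockout cells, 9.67 and 9.53 in control cells with corticosterone, and 9.77 and 8.65 in untreated control cells. The hormone difference was -0.07 in knockout (95% interval -0.21 to 0.07) and -0.17 in control cells (-0.35 to 0.0037; adjusted p = 0.288). On control untreated replicate 2 the probe sets of Fkbp4 parted: its difference from replicate 1 was -1.13 on 1416362_a_at and 3.13 on 1416363_at, which read 8.16 against 5.03. With 8 arrays the untreated knockout minus control difference was 0.54 on 1416362_a_at and -1.59 on 1416363_at (adjusted p = 0.516 each), against -0.02 on both with 7.

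The probe sets shared by Ptges3 and Ptges3-ps varied least. Probe set 1417998_at lay between 12.67 and 12.74 on the 7 arrays and 1460221_at between 11.84 and 11.90, and control untreated replicate 2 read 12.90 and 12.04. The differences with 7 arrays between genotypes or treatments ran from -0.04 to 0.03, and the 95% intervals of the 5 genotype or hormone contrasts on both probe sets lay within -0.12 to 0.10.

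**Figure D4:**
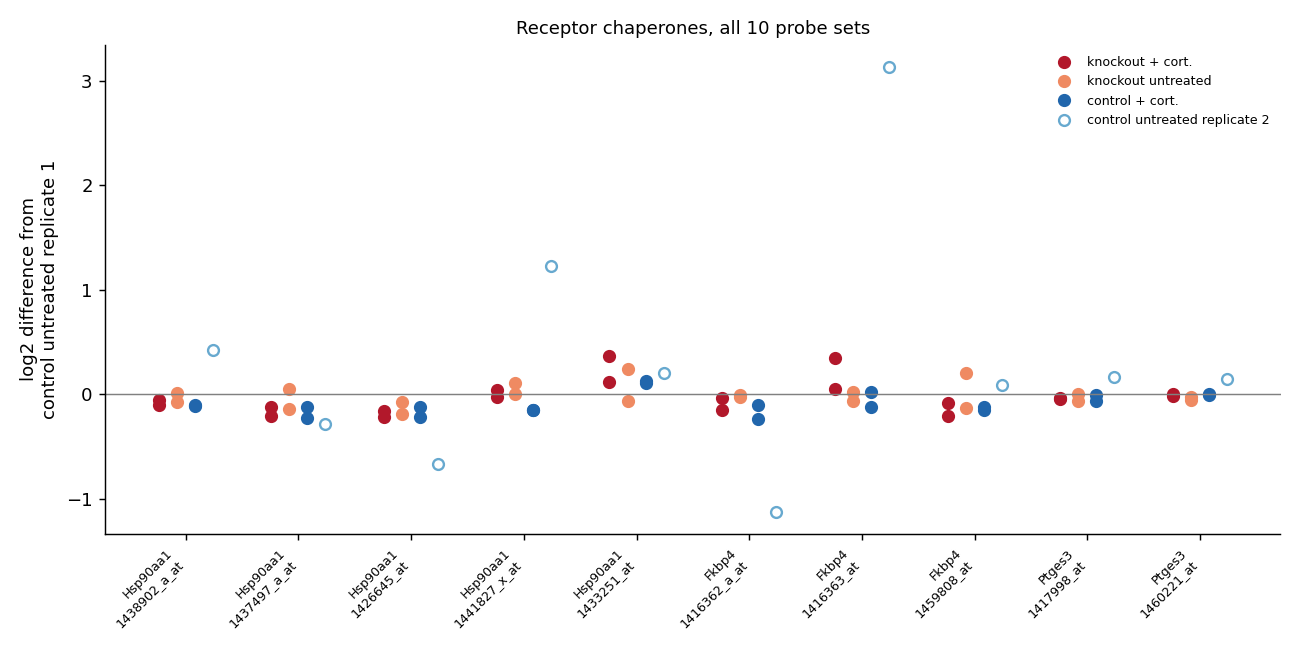
Log2 difference of each array from control untreated replicate 1 for the 10 probe sets of Hsp90aa1, Fkbp4 and Ptges3, with knockout left of control and corticosterone left of untreated. The filled points stay near 0, while the open point, control untreated replicate 2, reaches 3.13 on Fkbp4 1416363_at and -1.13 on Fkbp4 1416362_a_at.

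Set beside each other, the 23 probe sets gave a median hormone difference of -0.050 in knockout and -0.14 in control cells with 7 arrays, against -0.0060 and 0.00039 over all probe sets, and 9 and 6 of the 23 were positive. How many of all probe sets had a positive difference was not counted. The control values with 7 arrays rest on a single untreated array. With 8 arrays the control median was -0.0305, against 0.0328 over all probe sets, and 10 of the 23 were positive. The median knockout minus control difference as a mean over both treatments was -0.0033 with 7 arrays, against -0.0069 over all probe sets. With 8 arrays it was -0.0175, against 0.00846. Members of a gene share their transcript, and the hormone comparisons of both genotypes share arrays with the genotype comparisons, so these counts are not independent.

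**Figure D5:**
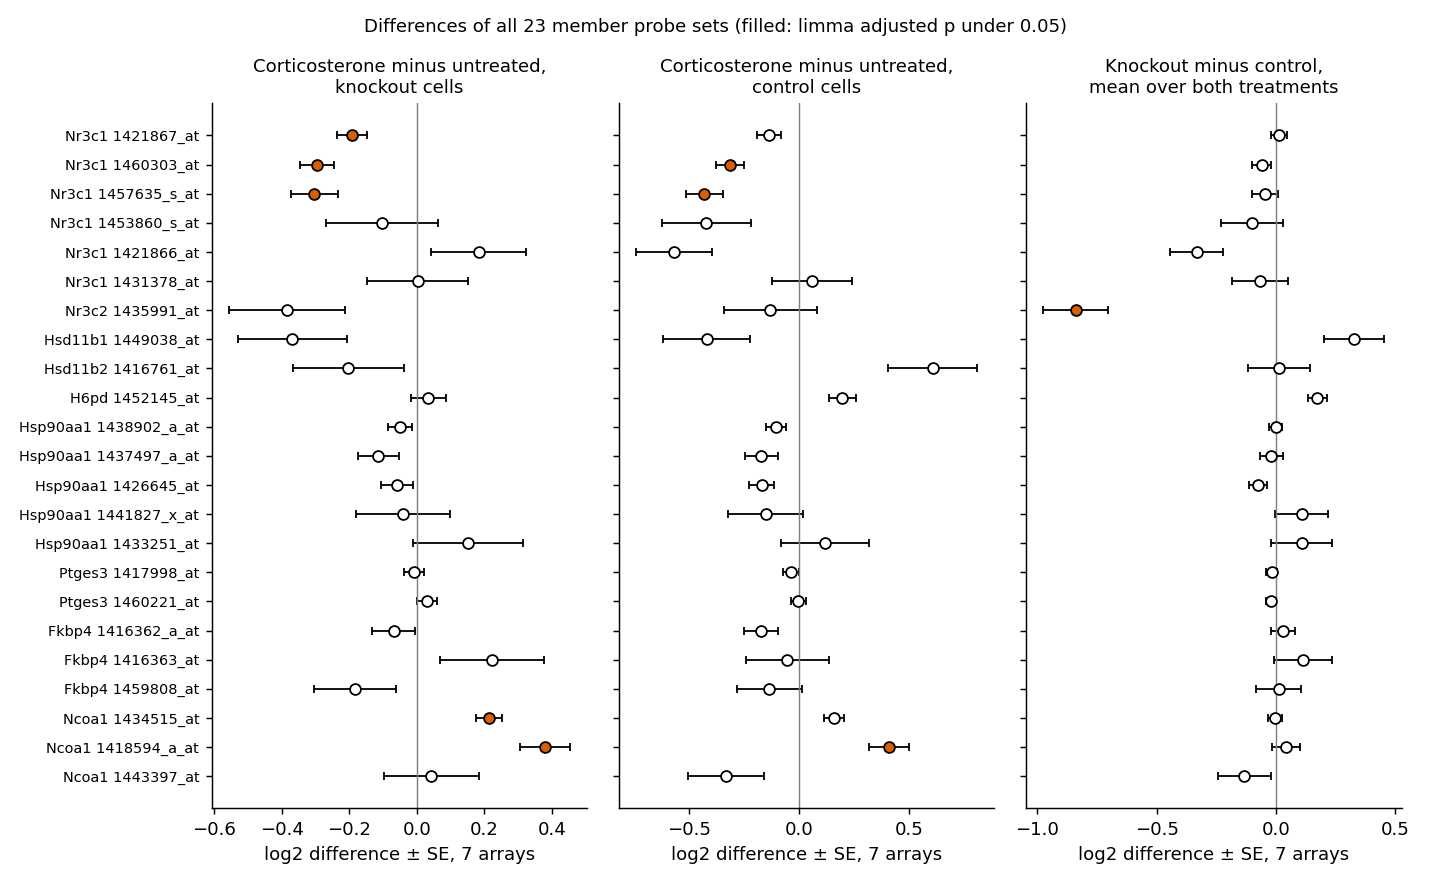
Log2 differences with SE from the fit of 7 arrays for all 23 probe sets, in 3 panels for corticosterone minus untreated in knockout cells, the same in control cells, and knockout minus control as a mean over both treatments. Filled points have a limma adjusted p under 0.05: 5 in knockout cells, 3 in control cells, and Nr3c2 alone, at -0.84, between genotypes.

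Beyond the 10 genes, 20 of 22 co-chaperones and related factors had a probe set of their own. With corticosterone 1 rose and 1 fell in each genotype with 7 arrays, and 18 did not pass. Over all 18193 genes with a probe set of their own, 14.4% had one called for the hormone in knockout and 11% in control cells, so this share of the list lay near or below the background. The one that rose was Fkbp5, by 3.62 on 1416125_at in knockout cells (SE 0.04, limma adjusted p = 1.17e-10) and by 3.86 in control cells (SE 0.05, adjusted p = 6.18e-10); probe set 1448231_at gave 3.61 and 3.83, and 1447736_at, at 3.43 to 3.92, was not called. These Fkbp5 calls held in each of 7 fits that left out an array and with all 8 arrays (adjusted p = 0.0178 in knockout and 0.0171 in control cells on 1416125_at). The one that fell was St13, an Hsp70 partner named after its values were seen, by 0.11 in knockout (adjusted p = 0.0377) and 0.15 in control cells (adjusted p = 0.0294) on 1436113_a_at, calls that held in 1 and 2 of the 7 fits that left out an array. In control cells its probe set 1460193_at was also called lower, by 0.17, which held in 2 of the 7. With control untreated replicate 2, alone in its group, in place of replicate 1 the difference was 0.32.

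Between untreated cells of the 2 genotypes the sign of the Fkbp5 difference turned on which control array was used. On 1416125_at knockout arrays read 8.45 and 8.45, between control replicate 1 at 8.08 and replicate 2 at 8.72. The difference was 0.36 with 7 arrays (SE 0.05), a call resting on a single untreated control array, and -0.27 with replicate 2 in place of replicate 1. There the array that stood apart was alone in its group and added nothing to the residual spread, so the direction was not tested. Leaving out control corticosterone replicate 1 or 2 ended the 7-array call, with a highest adjusted p of 0.0539, and with 8 arrays the difference was 0.05 (adjusted p = 0.904). As a mean over both treatments it was 0.24 (adjusted p = 0.00429), the 1 gene called of 20 on the list against 4.35% of all genes, and was lost without control untreated replicate 1 or control corticosterone replicate 1, with a highest adjusted p of 0.0793.

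Of 20 receptor coregulators 17 were measured, and 2 were called for the hormone in each genotype, near the 14.4% and 11% of all genes. In knockout cells with corticosterone Trim28, a corepressor, fell by 0.22 (adjusted p = 0.00614; lost without knockout corticosterone replicate 1, adjusted p = 0.0664) and Kat2b, an acetyltransferase, rose by 0.26 (adjusted p = 0.00733; lost without replicate 2, adjusted p = 0.0838). In control cells Kat2b rose by 0.32 on the same probe set, 1434037_s_at (adjusted p = 0.0102; lost without control corticosterone replicate 2, adjusted p = 0.0931), and Ncoa3, a p160 relative of Ncoa1, by 0.15 (adjusted p = 0.0145; lost without either control corticosterone array, highest adjusted p = 0.0962). A second Kat2b probe set, 1457809_at, rose by 0.69 in control cells (adjusted p = 0.0474; held in 3 of the 7 fits that left out an array). With control untreated replicate 2 in place of replicate 1 these control differences were 1.60 and 2.01 on the probe sets of Kat2b and 0.63 on that of Ncoa3. Kat2b, and the hormone value of Ncoa3, were picked out after their values were seen. Between genotypes, as a mean over both treatments, Crebbp, Ncoa3 and Trim28 were called higher in knockout cells by 0.18, 0.09 and 0.14 (adjusted p = 0.0361, 0.0408 and 0.0465), 3 of 17 against 4.35% of all genes. Each call held, in that direction, in 2 of the 7 fits that left out an array. A gene counted as called if any of its probe sets was. Genes with more probe sets had more chances of a call, and the 4.35% was not matched for this. With control untreated replicate 2 in place of replicate 1 Crebbp was at -0.17, while Ncoa3 was at 0.33 and Trim28 at 0.22. With 8 arrays no coregulator passed in any comparison.

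Genes that make NADPH, handle glucose 6-phosphate, or carry or break down steroids were measured for 8 of 10. With corticosterone 2 of the 8 were called lower in each genotype with 7 arrays and 0 higher, against 14.4% of all genes called either way in knockout and 11% in control cells. Pgd, which makes NADPH in the cytosol, fell by 0.21 in knockout and 0.24 in control cells on 1423706_a_at (adjusted p = 0.000791 and 0.00153); the knockout call held in all 7 fits that left out an array and the control call, in that direction, in 6. With control untreated replicate 2 in place of replicate 1 the control difference was 0.26. Another 3 of its probe sets fell too, by 0.10 to 0.16 in knockout and 0.17 to 0.19 in control cells; of these 6 calls only that of 1438627_x_at in knockout cells held in all 7 such fits. G6pc3, a phosphatase that uses the glucose 6-phosphate on which H6pd also works, fell by 0.32 in both genotypes on 1428245_at (adjusted p = 0.0131 and 0.0398; held in that direction in 5 and 2 of the 7 fits that left out an array), and was named after its values were seen. Its control difference was 1.36 with control untreated replicate 2 in place of replicate 1. With 8 arrays neither passed, and in control cells the difference of Pgd on 1423706_a_at was 0.01 and that of G6pc3 was 0.52 (adjusted p = 0.969 and 0.561). Of the androgen and progesterone receptor genes, Pgr was measured, by 3 probe sets. It was not called on any, and the brightest by its mean, 1421444_at, lay between 2.74 and 3.27.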

How the data were processed

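Expression was measured on 8 Affymetrix arrays, 2 for each of 4 groups. The deposited values are log2 levels per probe set, normalized with RMA in R 2.7, per the submitters' processing notes. All value columns belonged to a labelled sample. Of 45101 probe sets, 64 array controls were left out and 45037 tested, with no filter on dim ones; 34945 had 1 gene in the platform annotation, 932 several and 9160 none, and symbols were updated through RefSeq.

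A linear model with a coefficient for each group was fitted to all probe sets with limma 3.58.1 in R 4.3.3 (eBayes with a trend on the mean level; Benjamini-Hochberg over all probe sets; called under 0.05). The fit of 7 arrays left 3 residual degrees of freedom and that of 8 left 4. The script was tested on simulated data. Nr3c2 was also tested over arrays by an exact permutation test. Precision is limited by the few arrays: the median SE between groups of 2 was 0.123 log2 units with 7 arrays and 0.207 with 8.

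The genes and lists were chosen with earlier results of these data known. From the lists of related genes, up to 6 called probe sets with the smallest p were named for each comparison; others named are marked in the text. Likeness was ranked by the root mean square difference of centred values over 7 arrays, for the 5 closest named genes. Replicate numbers in the labels mark no shared animal, litter or day, and the correlation of same-numbered deviations between groups ran from -0.229 to 0.318, so samples were not paired. Alternatives were all 8 arrays, array weights, no variance trend, only probe sets above the median level, 1 probe set per gene, repeated quantile normalization, only the groups compared, the replicate block, and leaving out each array.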

Additional observations from a re-analysis of the deposited data

Results flagged for a closer look

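In 4 comparisons a member moved in opposite directions in the groups set side by side, with no overlap between their arrays. In none did the interaction pass after adjustment. The Ptges3 probe set among them was counted with 7 arrays and again with 8. With 7 arrays untreated control cells had a single array, so a lack of overlap was easily met. With control untreated replicate 2 included, arrays overlapped in the Nr3c1 and Hsd11b2 cases. How many of all probe sets show such a pattern was not counted. Every group held at most 2 arrays, so no single array was tested as an outlier within its group.

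On Nr3c1 1421866_at both treated knockout arrays lay above the untreated ones, while both treated control arrays lay below control untreated replicate 1. The interaction was 0.75 with 7 arrays (SE 0.22, limma adjusted p = 0.869). On Hsd11b2 knockout arrays lay below control arrays with corticosterone and above control untreated replicate 1 without it, and the interaction was -0.81 with 7 arrays (SE 0.26, limma adjusted p = 0.869). On Ptges3 1460221_at, shared with Ptges3-ps, treated arrays lay above untreated ones in knockout and below them in control cells. That interaction was 0.11 with 8 arrays (limma adjusted p = 0.752) and 0.033 with 7 (adjusted p = 0.964).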

How the results depend on the processing

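Repeated quantile normalization changed no call on the members. With all 8 arrays the number of probe sets called was 0 for knockout against control with corticosterone, 0 untreated and 6 as a mean over both treatments, 26 for the hormone in knockout and 28 in control cells, and 0 for the interaction, and 0 members were called. Array weights on all 8 arrays gave 0 for genotype untreated, 15 for its mean, 2666 for the hormone in knockout and 10 in control cells, and 0 for the interaction, with 0 members called for the hormone in control cells and for the mean genotype difference. Without the variance trend the counts were 100, 64 and 228 for genotype with corticosterone, untreated and as a mean, 1688 and 864 for the hormone in knockout and control cells, and 0 for the interaction, with 0 members called. With 1 probe set per gene 2502 and 1979 passed for the hormone in knockout and control cells, 2 and 0 of them members, and 2 members passed for the mean genotype difference, as they did with only probe sets above the median level (Nr3c2 and H6pd). With only the groups compared, 553 passed for genotype with corticosterone and 101 untreated. With the replicate number as a block the counts were 229 for genotype untreated and 672 as a mean, and 0 members with corticosterone; the numbers do not pair the samples.

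Leaving out each array in turn gave 136 to 549 calls for genotype with corticosterone (members 0 to 1), 218 to 26185 untreated (0 to 18), 437 to 23496 as a mean (0 to 16), 2203 to 4752 for the hormone in knockout cells (1 to 5), 1551 to 26400 in control cells (0 to 14) and 2 to 23378 for the interaction (0 to 16). The highest counts of every comparison but genotype with corticosterone and the hormone in knockout cells come from putting control untreated replicate 2 in place of replicate 1. In that fit the interaction of Nr3c2 was 1.82 instead of -0.25 and the hormone difference of Nr3c1 1460303_at in control cells 0.025 instead of -0.32; over all fits that left out an array they ran from -0.43 to 1.82 and from -0.34 to 0.025. Causes were not tested beyond that substitution. Groups of 2 arrays, and 1 usable control untreated array, limit every comparison, and each call on a member was lost with all 8 arrays and without the variance trend.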
